A study of Mus musculus with 46 samples.

Results

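Nephron lineage transcription factors were followed across 4 cell populations sorted from mouse kidneys. The members were Hnf4a, Hnf4g, Pax2, Pax8, Lhx1, Sox4, Sox9 and Foxc1, taken by their gene names from a table of 53465 genes, and all 8 were found in it. RNA-seq had been performed on cells of the proximal tubule (PT), macrophages, endothelium and stroma of wild-type male C57BL/6 mice aged 8 to 12 weeks. Mice underwent sham surgery, unilateral ureteral obstruction (UUO, in which the ureter of 1 kidney is tied) or reversal of UUO (rUUO, in which the ureter is reconnected to the bladder). The study's methods give culls 2 and 7 days after obstruction and 14 days after reversal, and the sample labels do not say which of the UUO days a sample belongs to. PT cells were sorted by binding of the lectin LTL, macrophages by F4/80, endothelial cells by CD31 and stromal cells by PDGFRB. The samples used were 3 sham, 4 UUO and 3 rUUO for PT cells, 4, 4 and 3 for macrophages, 4, 3 and 4 for endothelial cells, and 4 of each surgery for stromal cells. PT UUO replicate 2 carries both SHAM and UUO in its title and was grouped by its treatment label, UUO.

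The nephron arises from mesenchyme that turns into epithelium under the control of Pax2, Pax8 and Lhx1, transcription factors that are needed for kidney formation. Hnf4a is a nuclear receptor that drives the genes of the differentiated proximal tubule, and Hnf4g is its paralog. Sox9 is switched on in tubular cells after injury, Sox4 is a related SOX factor of progenitors, and Foxc1 is a forkhead factor of the embryonic kidney mesenchyme that is also known from mural cells and podocytes.

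The promoters of 4 members that changed in PT cells are shown as the 250 bases before the start of transcription, from RefSeq on GRCm38.p6, written 5′ to 3′ on the strand of the gene. Entries were found for 6 of the 8 members. Hnf4a has 2 listed starts and Pax2 has 3, and the deposited values are per gene and cannot tell them apart. Both Hnf4a windows and the first 2 Pax2 windows are shown, while the window of the third Pax2 start, which lies just downstream of the second start, is described only. The listed coordinates of the Pax2 gene are chr19:44756045-44837871. The first 2 Pax2 windows end before these coordinates, and the third window lies within them. Capitals mark matches, on either strand, to the motifs searched, which were the HNF4 motif CAAAGTCCA, the HNF1 motif GTTAAT, the AP-1 motif TGANTCA, the SOX motif ACAAAG and the TATA box TATAAA. They do not overlap.
Hnf4a, first start, chr2:163506607-163506856, + strand: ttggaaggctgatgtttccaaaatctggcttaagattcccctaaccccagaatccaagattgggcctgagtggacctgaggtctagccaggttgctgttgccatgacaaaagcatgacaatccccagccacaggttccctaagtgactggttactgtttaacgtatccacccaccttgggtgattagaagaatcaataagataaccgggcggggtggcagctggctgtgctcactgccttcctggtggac
Hnf4a, second start, chr2:163546905-163547154, + strand: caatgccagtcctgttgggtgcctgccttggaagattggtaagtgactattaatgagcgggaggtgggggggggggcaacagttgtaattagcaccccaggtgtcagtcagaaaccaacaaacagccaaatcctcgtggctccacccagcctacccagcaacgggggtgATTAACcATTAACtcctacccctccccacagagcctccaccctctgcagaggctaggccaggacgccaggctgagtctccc
Pax2, first start, chr19:44746351-44746600, + strand: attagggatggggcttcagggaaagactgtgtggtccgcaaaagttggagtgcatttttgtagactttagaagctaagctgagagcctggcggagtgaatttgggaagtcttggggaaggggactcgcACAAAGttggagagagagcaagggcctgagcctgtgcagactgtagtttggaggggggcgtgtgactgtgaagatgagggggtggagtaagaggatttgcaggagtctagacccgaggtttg
Pax2, second start, chr19:44755502-44755751, + strand: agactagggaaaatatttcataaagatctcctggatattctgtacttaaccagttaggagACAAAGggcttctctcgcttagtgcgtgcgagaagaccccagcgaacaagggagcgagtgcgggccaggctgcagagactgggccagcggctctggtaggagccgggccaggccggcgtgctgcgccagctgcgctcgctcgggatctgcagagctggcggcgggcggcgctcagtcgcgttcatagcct
Pax8, chr2:24475600-24475849, - strand: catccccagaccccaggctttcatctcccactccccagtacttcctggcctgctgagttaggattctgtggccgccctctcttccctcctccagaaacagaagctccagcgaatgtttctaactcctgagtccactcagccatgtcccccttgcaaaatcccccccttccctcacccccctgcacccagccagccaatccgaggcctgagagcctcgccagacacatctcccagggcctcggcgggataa
Sox4, chr13:28953700-28953949, - strand: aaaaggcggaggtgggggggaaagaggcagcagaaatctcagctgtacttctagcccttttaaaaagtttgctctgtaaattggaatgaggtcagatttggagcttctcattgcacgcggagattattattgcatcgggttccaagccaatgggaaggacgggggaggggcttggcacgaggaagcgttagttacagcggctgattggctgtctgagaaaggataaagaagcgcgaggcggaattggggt

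The second Hnf4a start held 2 matches to the HNF1 motif, which 6.43% of all 32851 windows of this length hold at least once. The first and the second Pax2 window held 1 match each to the SOX motif, found in 16.5% of all windows, and the third (chr19:44756656-44756905) held none. No match to the 5 motifs was found in the first Hnf4a window, the third Pax2 window or those of Pax8 and Sox4. The HNF4 motif was found in 0.384% of all windows, the AP-1 motif in 6.75% and the TATA box in 12.4%. The G and C content was 51.2% and 57.6% at the Hnf4a starts, 52.8%, 60.8% and 72.8% at the Pax2 starts, 60.4% for Pax8 and 50.8% for Sox4, against a median of 52.4% over all windows.

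Values were deposited as FPKM, which divide the fragments of a gene by its transcript length and by the mapped total of the sample, so levels can be set side by side between genes. FPKM sums per sample ranged from 586929 to 884982, and the 37 mitochondrial genes took 58.7 to 75.6% of the sum in PT cells and 20.2 to 45.8% in the other populations. The absolute depth is unknown, and relative depth ranged from 0.58 to 1.65 around the median sample. Each population had its own markers at high levels in every sample used. The sum of 5 proximal tubule markers (Lrp2, Cubn, Slc34a1, Slc5a2 and Slc22a6) was 1669 to 2272 FPKM in PT sham and 28.7 to 120.7 FPKM in the sham samples of the other populations. Markers of the loop of Henle, distal tubule and collecting duct were found in all 4 populations. In endothelial sham replicate 3, markers of the thick ascending limb and distal tubule summed to 820.4 FPKM (162.5 to 329.7 FPKM in the other 3 samples), those of the collecting duct to 247.9 FPKM (53.9 to 62.1 FPKM) and those of the proximal tubule to 120.7 FPKM (31.7 to 48.0 FPKM). In sorted bulk samples, fewer cells of a type and less RNA per cell cannot be told apart.

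In sham kidneys the members were spread over different populations. Hnf4a was the most abundant member in PT cells, at 78.3, 71.9 and 59.1 FPKM, and its mean of 69.8 ± 9.77 FPKM (SD, n = 3) stood over 3.77 ± 1.49 FPKM in macrophages, 2.33 ± 1.31 FPKM in endothelial cells and 1.71 ± 0.649 FPKM in stromal cells (each SD, n = 4). No sham sample of another population came near the PT range. Hnf4g was also highest in PT cells but at much lower levels, at 0.68 to 2.41 FPKM in PT sham against at most 0.1 FPKM in the 12 other sham samples, of which 7 were listed at 0. Pax8 was higher in stromal cells (37.9 ± 15.2 FPKM) than in PT cells (12.7 ± 2.94 FPKM), followed by endothelial cells (6.31 ± 2.27 FPKM) and macrophages (1.77 ± 0.546 FPKM). Pax2 had 10.4 ± 6.70 FPKM in stromal and 4.21 ± 1.68 FPKM in PT cells, and these ranges overlapped. Lhx1 lay between 0.22 and 4.09 FPKM over all sham samples, and the PT and stromal ranges overlapped. Foxc1 and Sox4 were led by stromal cells, at 12.4 ± 1.36 FPKM and 6.02 ± 0.963 FPKM, while both were under 0.25 FPKM in every PT sham sample. Sox9 was low in all sham groups, with its highest mean in stromal cells (1.22 ± 0.890 FPKM).

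**Figure D1:**
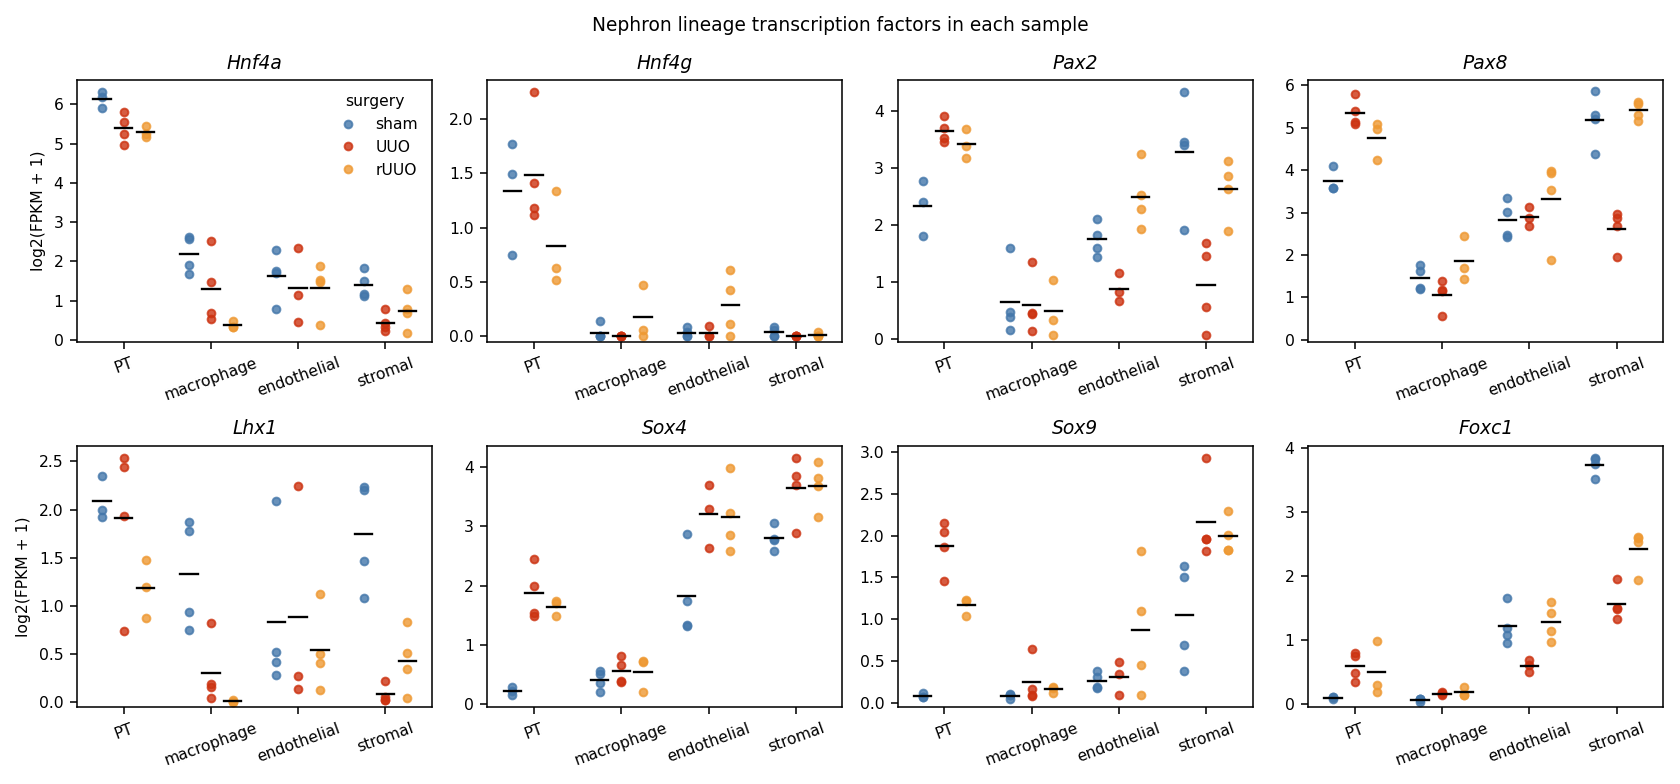
Level of each of the 8 members as log2(FPKM + 1) on the vertical axis, for each of 44 samples (points) by population and surgery, with black bars for group means; the vertical scale differs between panels. Hnf4a and Hnf4g were led by PT cells, Foxc1 and Sox4 by stromal cells, and Pax8 fell in stromal UUO samples to between 2.87 and 6.87 FPKM while it rose in PT UUO samples.

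These sham levels were tested by limma on log2(FPKM + 1) over all sham samples, after leaving out genes whose mean was under 1 FPKM, and 6 members were tested. All changes below are on this scale, which understates the change of low genes, and adjusted p-values are Benjamini-Hochberg values over all genes tested. PT cells differed from each of the other populations at a large share of all genes, 64.9% against macrophages, 62.3% against endothelial cells and 67.6% against stromal cells, with medians over all genes of -0.9, -0.93 and -1.06. Of the 6 members tested, 3 were higher and 0 lower in PT cells than in macrophages (12.6% and 52.4% of all genes), 3 higher and 2 lower than in endothelial cells (8.73% and 53.6%), and 1 higher and 3 lower than in stromal cells (7.89% and 59.7%). Sox4 and Foxc1, the 2 lower against endothelial cells and 2 of the 3 lower against stromal cells, reached the mean of 1 FPKM only through those populations, so their calls add nothing to the counts. Without PT sham replicate 2 or endothelial sham replicate 1, 3 members and not 5 differed between PT and endothelial cells, as the calls for Pax8 and Lhx1 were lost. Hnf4a was higher in PT cells by 3.94, 4.50 and 4.73 (SE 0.34 each; adjusted p = 2.45e-08, 5.67e-09 and 3.3e-09). Between PT and stromal cells the change was -3.65 for Foxc1 and -2.57 for Sox4 (SE 0.24 and 0.33 in the filtered fit). By limma with no filter the adjusted p-values were 2.08e-08 and 3.02e-05. Pax8 was lower in PT than in stromal cells (-1.44, SE 0.32, adjusted p = 0.000882), a call that ended under quantile normalization (-0.41, adjusted p = 0.303) and after rescaling without mitochondrial genes (-0.76, adjusted p = 0.0592). Beside it, the markers of the thick ascending limb and distal tubule summed to 27.8 to 44.7 FPKM in PT sham and 330.9 to 530.9 FPKM in stromal sham, and their part in the Pax8 and Pax2 levels was not tested.

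In PT cells, Hnf4a was lower and Pax2, Pax8, Sox4 and Sox9 were higher in UUO than in sham samples. UUO was compared with sham for 7 members, since Foxc1 did not reach a mean of 1 FPKM in PT cells. Of these, 4 were higher, 1 was lower and 2 did not pass, where 32.8% of 11416 genes were called (27.9% higher and 4.91% lower) and the median of all genes was 0.51. Quantile normalization called 1218 genes higher and 1217 lower, against 3186 and 561 here, and the same 5 members kept their direction and their call under every scaling tried. Sox4 and Sox9 reached the mean of 1 FPKM only through the UUO and rUUO samples and so had to differ. Their calls add nothing to the count.

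Hnf4a had 78.3, 71.9 and 59.1 FPKM in sham, 30.4, 36.8, 55.1 and 45.6 FPKM in UUO, and 43.1, 35.0 and 37.2 FPKM in rUUO samples. Every UUO and rUUO sample lay below every sham sample, and UUO and rUUO overlapped. The change from sham was -0.74 in UUO (SE 0.22, adjusted p = 0.0195) and -0.84 in rUUO (SE 0.24, adjusted p = 0.0445), and between rUUO and UUO it was -0.10 (95% CI -0.57 to 0.38, adjusted p = 0.833). The fall in UUO no longer passed without sham replicate 1 (-0.66, adjusted p = 0.0798), sham replicate 2 (-0.72, adjusted p = 0.0545) or UUO replicate 1 (-0.60, adjusted p = 0.0542), nor when all 4 populations were fitted together (-0.74, adjusted p = 0.187). Hnf4g had 0.68 to 2.41 FPKM in sham, 1.17 to 3.73 FPKM in UUO and 0.43 to 1.52 FPKM in rUUO samples. The 3 groups overlapped, and no Hnf4g comparison passed (adjusted p = 0.787 for UUO against sham).

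Pax8 had 11.0, 16.1 and 11.0 FPKM in sham PT samples, 33.3, 34.1, 55.0 and 41.4 FPKM in UUO samples and 30.3, 18.0 and 32.8 FPKM in rUUO samples. The 3 groups did not overlap, with UUO highest and sham lowest. The rise over sham was 1.61 in UUO (SE 0.26, adjusted p = 0.000412) and 1.01 in rUUO (SE 0.28, adjusted p = 0.0425). Pax2 had 4.28, 5.85 and 2.49 FPKM in sham, 14.02, 12, 10.0 and 10.5 FPKM in UUO, and 9.52, 8.05 and 11.8 FPKM in rUUO samples. Both surgery groups lay above sham and overlapped each other, with rises of 1.32 in UUO (SE 0.27, adjusted p = 0.0024) and 1.09 in rUUO (SE 0.29, adjusted p = 0.0362). Lhx1, which acts beside the PAX factors in the forming nephron, had 2.98, 4.09 and 2.78 FPKM in sham, 2.82, 0.67, 4.45 and 4.80 FPKM in UUO, and 1.30, 0.84 and 1.78 FPKM in rUUO samples. Its rUUO samples lay below all sham samples, although this comparison did not pass (adjusted p = 0.24).

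Sox4 had 0.23, 0.12 and 0.17 FPKM in sham, 4.50, 1.80, 3.01 and 1.90 FPKM in UUO, and 2.28, 1.82 and 2.33 FPKM in rUUO samples. Sox9 had 0.05, 0.09 and 0.05 FPKM in sham, 3.43, 1.75, 3.12 and 2.63 FPKM in UUO, and 1.06, 1.33 and 1.35 FPKM in rUUO samples. Both genes were near 0 in every sham sample and higher in every sample of the other surgeries, and Sox9 was lower in every rUUO than in every UUO sample. Since the filter had selected both, their p-values are given from limma over all genes above 0 in any sample, with no filter. The SE beside them are from the filtered fit, and the changes are the same in both fits. The rise in UUO was 1.64 for Sox4 (SE 0.32, adjusted p = 0.00749) and 1.79 for Sox9 (SE 0.30, adjusted p = 0.00211). In rUUO the change from sham was 1.42 for Sox4 (SE 0.34, adjusted p = 0.0627) and 1.08 for Sox9 (SE 0.32, adjusted p = 0.105), and neither passed. With a pseudocount of 0.1 in place of 1, the rise in UUO was 3.33 for Sox4 and 4.08 for Sox9. Foxc1 stayed at or below 0.99 FPKM in all PT samples and was not tested.

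After reversal 3 members were higher than sham in PT cells and 1 was lower, of 7 tested, where 7.46% of all genes were called (6.52% higher and 0.946% lower) and the median of all genes was 0.21. Hnf4a, Pax2, Pax8 and Sox4 were those called, and Sox4 adds nothing to the count, for the reason given above. With no filter on low values 0 members were called. None was called in this comparison without sham replicate 1, sham replicate 4, rUUO replicate 2 or rUUO replicate 4, 2 were called without sham replicate 2, and 3 without rUUO replicate 3. Between rUUO and UUO 0 of 7 members were called by limma, against 3.83% of all genes. Pax8 (-0.60, adjusted p = 0.209) and Sox9 (-0.71, adjusted p = 0.186) were the 2 at an unadjusted p below 0.05. The comparisons share samples, as UUO and rUUO were set against the same 3 sham samples.

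**Figure D2:**
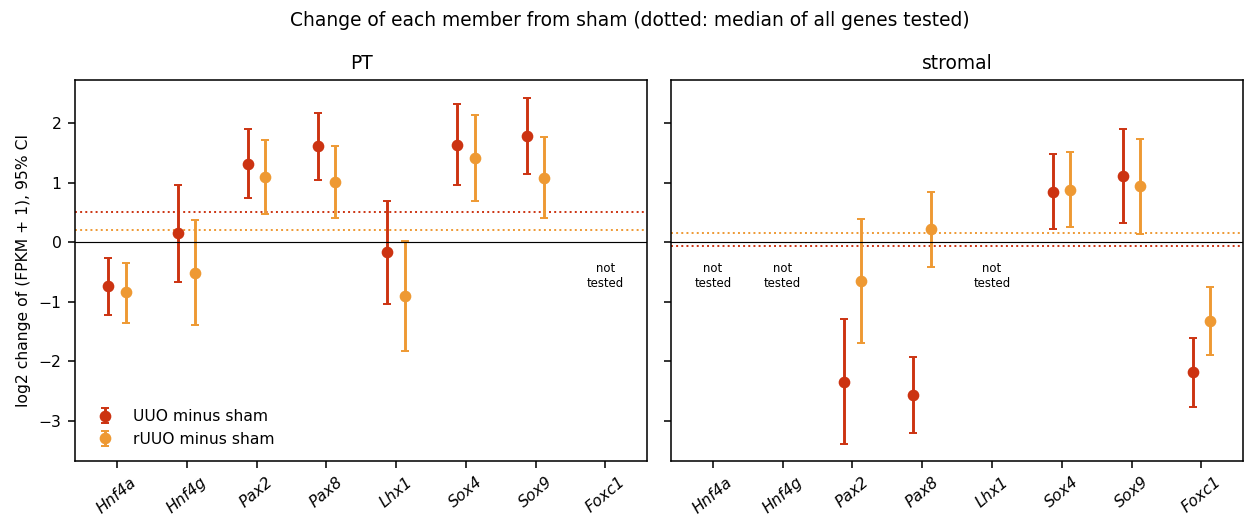
Change from sham of each member, as the difference of log2(FPKM + 1) with its 95% confidence interval on the vertical axis, in PT cells and stromal cells, for UUO and rUUO; dotted lines mark the median of all genes tested. In PT cells Hnf4a lay below 0 and Pax2, Pax8, Sox4 and Sox9 above it, while in stromal cells Pax2, Pax8 and Foxc1 fell in UUO and the Pax8 interval in rUUO included 0.

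Some markers of other nephron segments moved with these changes in the PT samples. The sum of 6 markers of the thick ascending limb and distal tubule was 27.8 to 44.7 FPKM in sham, 151.7 to 207.4 FPKM in UUO and 57.1 to 158.5 FPKM in rUUO. All 6 were above 0 in some samples of each group, but Pvalb and Cldn16 were at 0 in others. The mean of Pvalb was lower in UUO (0.045 FPKM) than in sham (0.377 FPKM). The sum of 6 collecting duct markers was 21.3 to 28.9, 294.5 to 419.9 and 136.6 to 205.2 FPKM, with all 6 above 0 in every sample. Of the first 6, all but Pvalb, 5, were tested, and 2 were higher in UUO and 1 in rUUO than in sham. Of the collecting duct markers 4 of 6 were higher in both, with 0 lower in either list. Of all genes, 27.9% were higher in UUO and 6.52% in rUUO. Cldn16 passed the filter only through UUO (0.147 FPKM in sham, 2.82 in UUO, 0.96 in rUUO), and Scnn1g had a sham mean of 0.97 FPKM. Rises of these 2 add nothing to the counts. Single genes carried much of the sums. Atp6v1g3, a proton pump subunit of intercalated cells, was at 5.50 ± 1.84 FPKM in sham, 282.8 ± 68.4 FPKM in UUO and 102.9 ± 26.4 FPKM in rUUO. Umod, made by the thick ascending limb, was at 17.4 ± 2.21 FPKM in the 3 sham samples (mean ± SD), at 147.4 ± 16.3 FPKM in the 4 UUO samples and at 72.9 ± 43.3 FPKM in the 3 rUUO samples. Slc12a3, the sodium chloride cotransporter of the distal tubule, was at 12.9 ± 5.19 FPKM in sham and 15.1 ± 7.38 FPKM in UUO, and these ranges overlapped. Proximal tubule markers fell from a sum of 1669 to 2272 FPKM in sham to 456.4 to 613.6 FPKM in UUO. The part of these segments in the member changes was not tested.

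Among other nephron transcription factors in PT cells, 7 of 16 tested rose and 3 fell in UUO, and 4 rose and 0 fell in rUUO against sham. Of all genes, 27.9% rose and 4.91% fell in UUO, and 6.52% rose and 0.946% fell in rUUO. The list holds 25 genes, and its tested members had a median change of 0.64 in UUO beside 0.51 for all genes. The largest changes in UUO were those of Foxi1 (5.20, SE 0.22, adjusted p = 1.56e-09), a factor of intercalated cells, Gata3 (2.67, SE 0.34), a factor of the collecting duct, and Tfcp2l1 (2.61, SE 0.19), a factor of distal segments. Grhl2, an epithelial factor, rose by 1.86 (SE 0.45). Foxi1 had 2.28 ± 1.02 FPKM in sham and 115.6 ± 5.88 FPKM in UUO. Maf (-1.43), Ppara (-1.43) and Nr1h4 (-1.10) fell, and Ppara is the nuclear receptor of fatty acid oxidation. Of 11 other SOX genes 3 were tested, and Sox13 rose by 1.07 (SE 0.39, adjusted p = 0.0485). None of 12 other PAX, LIM homeobox and forkhead C or D genes reached the mean of 1 FPKM in PT cells.

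Genes of the differentiated proximal tubule fell beside Hnf4a. Of 20 measured, 17 fell and 0 rose in UUO, with a median of -1.43, where 4.91% of all genes were lower and 27.9% higher. Slc6a19 (-3.06, SE 0.22), G6pc (-2.82, SE 0.29), Slc22a8 (-2.71, SE 0.23) and Slc5a2 (-2.57, SE 0.20) had the largest falls, encoding an amino acid transporter, a gluconeogenic enzyme, an organic anion transporter and a glucose transporter. In rUUO 8 of the 20 were lower than sham, beside 0.946% of all genes. Against UUO, 10 were higher in rUUO, where 3.83% of all genes were called in either direction and the change of Hnf4a was -0.10. Of 18 tubular injury and repair genes 17 were tested, with a median of 3.76, and 16 rose in UUO, where 27.9% of all genes were higher. The largest rises were those of Havcr1 (6.92, SE 0.34), Lcn2 (6.84, SE 0.40), Clu (5.96, SE 0.22) and Cd24a (5.20, SE 0.20). Lcn2, Krt18, Krt19, Cd44, Vcam1 and Cdh6 had sham means under 1 FPKM and passed the filter only through UUO and rUUO samples. They had to differ, so their calls add nothing to the count, and the median includes them. In rUUO 14 were higher than sham, where 6.52% of all genes were, with the same limit.

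Sox9 was set against Hnf4a within each PT sample, as the log2 ratio of their FPKM values plus 1. With Sox9 near 0 in sham samples, the sham ratio follows Hnf4a, and the scaling of a sample does not cancel in it. The ratio was -6.24, -6.06 and -5.84 in sham, -2.83, -3.78, -3.77 and -3.68 in UUO, and -4.42, -3.95 and -4.02 in rUUO samples. The 3 groups did not overlap, with sham lowest and UUO highest. The mean was higher in UUO than in sham by 2.53 (p = 0.0571 by a two-sided exact permutation test, 0.0857 after adjustment for 3 comparisons), in rUUO than in sham by 1.92 (exact p = 0.1), and lower in rUUO than in UUO (-0.62, exact p = 0.0571). These are the smallest p-values that this form of the test, which doubles the smaller tail, can give, 0.0571 for 3 against 4 samples and 0.1 for 3 against 3.

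**Figure D3:**
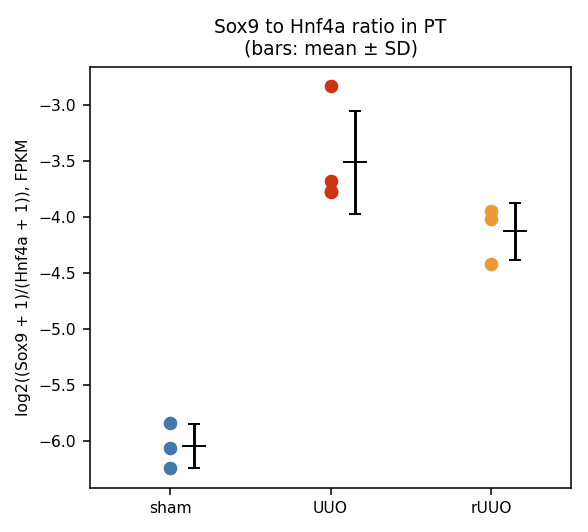
Log2 ratio of Sox9 to Hnf4a, each as FPKM plus 1, on the vertical axis, for each PT sample (points) by surgery, with bars for the mean and SD. Sham samples lay between -6.24 and -5.84, UUO samples between -3.78 and -2.83 and rUUO samples between -4.42 and -3.95.

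In stromal cells, Pax8, Pax2 and Foxc1 were lower and Sox4 and Sox9 were higher in UUO than in sham samples. All 5 members tested passed, 2 higher and 3 lower, where 26.4% of 14033 genes were called (13.4% higher and 13% lower) and the median of all genes was -0.07. The calls for Sox4 and Sox9 ended in some alternatives, given with their values. Pax8 had 35.8, 57.0, 19.99 and 38.7 FPKM in sham, 2.87, 6.87, 6.33 and 5.45 FPKM in UUO, and 35.0, 48.2, 46.0 and 38.2 FPKM in rUUO samples. Every UUO sample lay below every sample of the other surgeries, and rUUO lay within the range of sham. The change was -2.57 between UUO and sham (SE 0.30, adjusted p = 1.18e-05) and 2.79 between rUUO and UUO (SE 0.30, adjusted p = 0.000212). Between rUUO and sham it was 0.22 (95% CI -0.41 to 0.85, adjusted p = 0.695). Pax2 had 9.97, 9.65, 2.78 and 19.1 FPKM in sham, 0.05, 0.47, 2.21 and 1.74 FPKM in UUO, and 7.70, 5.23, 2.72 and 6.24 FPKM in rUUO samples. UUO again lay below both other groups, with a change of -2.34 from sham (SE 0.49, adjusted p = 0.00227), and the return in rUUO did not pass (1.69, SE 0.49, adjusted p = 0.0679).

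Lhx1 and Hnf4a missed the mean of 1 FPKM in stromal cells and were not tested. Lhx1 had 3.72, 3.60, 1.12 and 1.76 FPKM in sham, 0.02 to 0.17 FPKM in UUO and 0.03 to 0.78 FPKM in rUUO samples, so that it stayed below all sham samples after reversal. Hnf4a had 1.17 to 2.58 FPKM in sham, 0.16 to 0.71 FPKM in UUO and 0.13 to 1.44 FPKM in rUUO samples. Markers of tubular segments fell with these genes in the stromal samples. The thick ascending limb and distal tubule sum was 330.9 to 530.9 FPKM in sham, 29.0 to 61.4 FPKM in UUO and 53.3 to 94.1 FPKM in rUUO, and the collecting duct sum was 89.4 to 201.9, 3.43 to 19.9 and 6.11 to 14.4 FPKM. None of the 12 markers was at 0 in all samples of a group. Pax8 in rUUO samples was at the level of sham while both sums stayed below all sham samples. The part of tubular RNA in these changes was not tested.

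**Figure D4:**
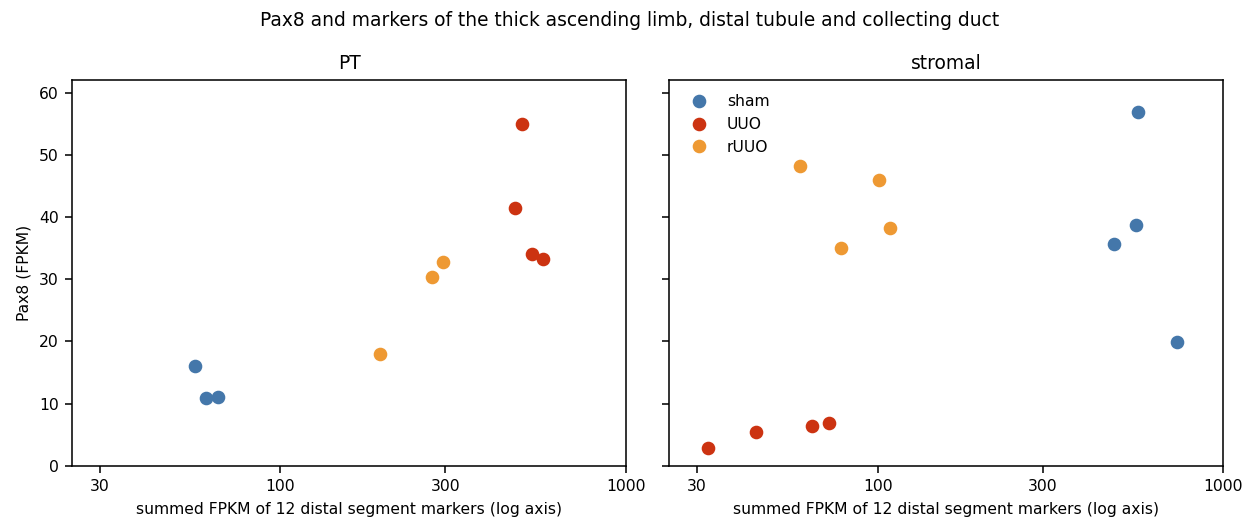
Pax8 in FPKM on the vertical axis against the summed FPKM of 12 markers of the thick ascending limb, distal tubule and collecting duct on a log axis, for each PT sample and each stromal sample (points), coloured by surgery. In PT cells both were lowest in sham and higher in UUO and rUUO, while in stromal cells the 4 rUUO samples held 35.0 to 48.2 FPKM of Pax8 at marker sums of 59.6 to 108.5 FPKM, far below the sham sums of 482 to 733 FPKM.

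Foxc1 had 13.4, 13.3, 12.6 and 10.5 FPKM in stromal sham, 1.84, 2.86, 1.79 and 1.5 FPKM in UUO, and 4.77, 5.15, 2.82 and 5.02 FPKM in rUUO samples. Sham lay above both other groups, and rUUO overlapped UUO only through replicate 4. The change from sham was -2.18 in UUO (SE 0.27, adjusted p = 2.43e-05) and -1.32 in rUUO (SE 0.27, adjusted p = 0.00289), while rUUO against UUO gave 0.85 (SE 0.27, adjusted p = 0.0943). Beside it, the sum of 4 podocyte markers was 102.6 to 158.7 FPKM in sham, 33.4 to 100.6 FPKM in UUO and 63.7 to 74.5 FPKM in rUUO, and the sum of 5 stromal markers was 998 to 2510 FPKM in sham and 6466 to 11500 FPKM in UUO. Of these 5, 4 rose, among them the collagen gene Col3a1 (428.3 ± 256.6 to 4314 ± 1024 FPKM), and Pdgfrb, the gene of the sorting marker, fell from 212.4 ± 43.5 to 117.0 ± 38.9 FPKM. The part of these cell types was not tested.

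Sox4 had 5.01, 7.33, 5.86 and 5.88 FPKM in stromal sham, 13.4, 12.1, 16.9 and 6.38 FPKM in UUO, and 13.1, 7.91, 15.9 and 11.9 FPKM in rUUO samples. Only UUO replicate 4 lay within the sham range. The rise in UUO was 0.85 (SE 0.30, adjusted p = 0.0454), and it no longer passed when any sham sample or UUO replicate 1, 2 or 3 was left out, with values of 0.68 to 0.93. Sox9 had 0.30, 1.85, 2.10 and 0.62 FPKM in sham, 6.62, 2.88, 2.90 and 2.51 FPKM in UUO, and 2.54, 2.56, 3.92 and 3.02 FPKM in rUUO samples. Sham lay below both other groups. The rise in UUO was 1.11 (SE 0.37, adjusted p = 0.0384) and no longer passed without sham replicate 1 (0.89), sham replicate 4 (0.99), UUO replicate 1 (0.86) or UUO replicate 2 (1.18). Neither gene passed with the replicate block (adjusted p = 0.0888 for Sox4 and 0.0825 for Sox9) or after rescaling without mitochondrial genes (0.69, adjusted p = 0.0999, and 1.01, adjusted p = 0.0513). In rUUO against sham, 0 members were higher and 1, Foxc1, was lower of 5 tested, beside 17.2% of all genes called (11.6% higher and 5.57% lower), with Sox4 at 0.88 (adjusted p = 0.0523) and Sox9 at 0.94 (adjusted p = 0.105). Between rUUO and UUO 1 of 5 was called, Pax8, beside 4.17% of all genes.

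Of the other nephron transcription factors, 18 of 25 were tested in stromal cells, with a median of -1.41 in UUO. There 10 fell and 1 rose, where 13% of all genes were lower and 13.4% higher. Gata3 (-5.81, SE 0.29), Tfcp2l1 (-2.65, SE 0.35) and Eya1 (-2.31, SE 0.40), a factor of nephron progenitors, were among the largest falls. Wt1, a podocyte factor, fell by 2.09 on the log2 scale (SE 0.27). Osr1, a factor of the early kidney mesenchyme, rose by 1.32 (SE 0.45, adjusted p = 0.0405). In rUUO against sham 4 of these factors were lower and 1 was higher, beside 5.57% and 11.6% of all genes. Of 6 other SOX genes tested, 2 fell in UUO, Sox13 (-2.81, SE 0.33) and Sox6 (-2.54, SE 0.47), and both remained lower in rUUO (-2.75 and -1.55).

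In macrophages only Hnf4a and Pax8 were tested. No member was called by limma in any of the 3 comparisons, where the share of all genes called was 4.99% (UUO minus sham), 0% (rUUO minus UUO) and 3.44% (rUUO minus sham). At an unadjusted p below 0.05 the counts were 0, 0 and 1. Hnf4a had 4.96, 5.12, 2.77 and 2.22 FPKM in sham, 0.44, 0.60, 4.72 and 1.80 FPKM in UUO, and 0.40, 0.25 and 0.26 FPKM in rUUO samples. All rUUO samples lay below all others, with a change of -1.82 from sham (SE 0.48, adjusted p = 0.0542). Proximal tubule markers fell in the same samples, from a sum of 79.5 to 97.2 FPKM in sham to 12.4 to 14.7 FPKM in rUUO, and their part in the result was not tested.

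In endothelial cells 5 members were tested, and 0 were called by limma in each comparison, where the share of all genes called was 1.98% (UUO minus sham), 0.0597% (rUUO minus UUO) and 1.77% (rUUO minus sham). At an unadjusted p below 0.05 the counts were 2, 1 and 1. Sox4 had 2.36, 6.34, 1.51 and 1.54 FPKM in sham, 5.24, 8.79 and 12.03 FPKM in UUO, and 8.37, 4.98, 14.8 and 6.25 FPKM in rUUO samples. Sham replicate 2 lay within the range of the other groups, and the changes were 1.39 in UUO (SE 0.44, adjusted p = 0.139) and 1.34 in rUUO (SE 0.41, adjusted p = 0.131). Without sham replicate 2 the change in rUUO was 1.69 (adjusted p = 0.0407). When all 4 populations were fitted together, Sox4 passed in both (adjusted p = 0.0124 and 0.00754). Pax2 had 2.55, 1.72, 3.32 and 2.04 FPKM in sham, 0.77, 0.58 and 1.24 FPKM in UUO, and 2.82, 8.51, 4.78 and 3.89 FPKM in rUUO samples. UUO lay below both other groups, with a change of -0.86 from sham (SE 0.39, adjusted p = 0.344) and of 1.62 from UUO to rUUO (SE 0.39, adjusted p = 0.136). Beside it, the thick ascending limb and distal tubule sum was 162.5 to 820.4 FPKM in sham, 58.9 to 201.8 FPKM in UUO and 63.5 to 229.1 FPKM in rUUO, and the collecting duct sum was 53.9 to 247.9, 26.4 to 78.8 and 18.3 to 35.0 FPKM. Their part in these levels was not tested. Without sham replicate 3, 0 members were called in UUO or rUUO against sham. Pax8 ranged from 2.66 to 14.7 FPKM over the endothelial samples, and Sox9 reached 2.52 FPKM in rUUO replicate 4.

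The change from sham to UUO was then compared between PT cells and each other population in 1 fit over all samples, with 7 members tested. Pax8 was higher after UUO in PT cells and lower in stromal cells, and the difference of the changes was 4.17 (SE 0.50, adjusted p = 1.89e-08). The difference was 3.66 for Pax2 (SE 0.58, adjusted p = 4.36e-06) and 2.68 for Foxc1 (SE 0.31 in the filtered fit, adjusted p = 4.87e-09 with no filter). Foxc1 had at most 0.99 FPKM in PT samples and entered the fit through stromal cells, so that its difference is mainly the stromal fall and adds nothing to the counts. These 3 were the members called against stromal cells, beside 29.2% of all genes called and a median of 0.51. Against endothelial cells 4 were called, Pax2 (2.19), Pax8 (1.53), Sox9 (1.74) and Foxc1 (1.12), beside 11.1% and a median of 0.4. The call for Pax2 ended without PT sham replicate 4 (1.93, adjusted p = 0.052). The call for Pax8 there ended when any of 9 samples was left out, with values of 1.36 to 1.70 over all 14. Against macrophages 3 were called, Pax8 (1.99), Sox4 (1.49) and Sox9 (1.63), beside 15.5% and a median of 0.45. The call for Sox4 ended without PT UUO replicate 1 (1.29, adjusted p = 0.0568). For Hnf4a the difference was 0.15 against macrophages (95% CI -0.96 to 1.26), -0.42 against endothelial cells (95% CI -1.57 to 0.73) and 0.23 against stromal cells (95% CI -0.88 to 1.34), and none passed. Sox4 and Sox9 did not differ past the threshold between PT and stromal cells (adjusted p = 0.197 and 0.225).

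The genes whose pattern over the 44 samples was most like that of each member are given as a description, by Pearson's r of log2(FPKM + 1). The samples fall into 4 populations, so these values follow mainly the population levels. Hnf4a was nearest to Gm10681 (r = 0.977), Guca2b (r = 0.972) and Slc17a1 (r = 0.971), and Slc17a1 encodes a phosphate transporter. Hnf4g was nearest to Cyp2a4 (r = 0.901), Acnat1 (r = 0.896) and Mogat1 (r = 0.89). The gene nearest to Pax2 was Pax8 (r = 0.861), followed by Pard6b (r = 0.846) and Elovl7 (r = 0.845), whereas Pax8 was nearest to Epb41l5 (r = 0.926), Ddr1 (r = 0.914) and Col4a4 (r = 0.895). Lhx1 had the lowest values, with Kcnj16 (r = 0.8), Degs2 (r = 0.788) and Pdzk1ip1 (r = 0.779). Sox4 was nearest to Osmr (r = 0.949), Hspb8 (r = 0.938) and Dstn (r = 0.93), Sox9 to Rhou (r = 0.903), Ccbe1 (r = 0.878) and Plagl1 (r = 0.854), and Foxc1 to Carmn (r = 0.936), Serpini1 (r = 0.935) and Arhgef17 (r = 0.935).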

How the data were processed

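RNA-seq libraries of the sorted cells were made with the Ovation RNA-Seq System V2. The authors deposited 1 table of FPKM values per gene and sample, rounded to 2 decimals. The submitters' processing notes name FastQC, Bowtie2, RSEM, DESeq2 and the build mm10, without versions. Of 46 value columns, 44 were matched to samples by name. The other 2 share the name of 1 endothelial UUO sample and were not used, and no column is named for PT sham 3. FPKM give no counts, so no count model or counting interval was used.

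Genes whose mean over the samples of a fit reached 1 FPKM were compared as log2(FPKM + 1) by limma (lmFit, eBayes with intensity trend), with 1 fit per population for surgery, 1 over sham samples and 1 over all 44 samples for the difference of changes. A Benjamini-Hochberg adjusted p below 0.05 over all genes tested was called. The series' design text gives 4 mice per group, but the labels do not tie a sample to a mouse, so p-values measure the spread between these samples, which may be technical in part. The Sox9 to Hnf4a ratio was compared by exact two-sided permutation tests of the difference of means, in which the smaller tail is doubled. A version that counts absolute differences, which allows smaller p-values for 3 against 4 samples, was also computed after the result was seen and was not used. The fits were tested on simulated data.

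The members and the gene lists were chosen with earlier results of these data known. Genes named besides members are at most 4 of each list with the largest changes among those called, and the 3 genes nearest to each member. One gene that this rule names is not reported here. Wt1, Osr1, Maf, Ppara, Nr1h4, Umod, Atp6v1g3, Slc12a3, Col3a1 and Pdgfrb fall outside this rule and were chosen after their values were seen. So were the stromal values of Cd24a, Dcdc2a, Cdh6, Itgb6, Krt8 and Krt18. Changes are printed for members at an unadjusted p below 0.05, for Hnf4a in PT cells and between populations, and for Pax8 in stromal rUUO samples, a choice also made with the values known. Alternatives were a pseudocount of 0.1, no filter, FPKM rescaled to a common sum (TPM), quantile normalization, rescaling without mitochondrial genes, no intensity trend, a fit on all populations, a replicate block and each sample left out. The limma version was 3.58.1 in R 4.3.3, and scipy 1.17.1 ran the permutation tests in Python 3.11.15.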

Additional observations from a re-analysis of the deposited data

Results flagged for a closer look

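In 7 of 62 groups of 4 samples checked, 1 sample stood apart from the other 3 on the log2 scale by Dixon's test. For normally distributed values this test flags about 1 group in 20 by chance. Hnf4g had 0.1 FPKM in macrophage sham replicate 4 and 0.03 FPKM in stromal rUUO replicate 6, where the others were listed at 0. There any value above 0 had to be flagged, so the rate by chance does not hold for these groups. Lhx1 had 3.26 FPKM in endothelial sham replicate 3 and 0.17 FPKM in stromal UUO replicate 2, each the highest of its group. In that endothelial sample the sums of proximal tubule, thick ascending limb and distal tubule, and collecting duct markers were also the highest of the 4, at 120.7, 820.4 and 247.9 FPKM. Sox9 was highest in macrophage UUO replicate 4 (0.56 FPKM) and stromal UUO replicate 1 (6.62 FPKM), and Foxc1 was lowest in stromal rUUO replicate 4 (2.82 FPKM).

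Of 21 tests of the difference between the UUO change in PT cells and that in another population, 10 passed. Of all genes, 15.5% were called against macrophages, 11.1% against endothelial cells and 29.2% against stromal cells. Against stromal cells the difference was 3.66 for Pax2, 4.17 for Pax8 and 2.68 for Foxc1. Against endothelial cells it was 2.19 for Pax2, 1.53 for Pax8, 1.74 for Sox9 and 1.12 for Foxc1, and against macrophages it was 1.99 for Pax8, 1.49 for Sox4 and 1.63 for Sox9. Foxc1 was under 1 FPKM in every PT sample, and it entered the fit through stromal cells, so its calls add nothing to the count. All 10 were higher in PT cells, where the median of all genes was also higher by 0.4 to 0.51.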

How the results depend on the processing

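Under the alternatives other than leaving out a sample, 370 of 429 values of the 57 printed changes kept their direction and side of the threshold, 36 lost their call, 17 gained one and 6 turned in sign. The 6 were all uncalled, and the cause was not tested. They were Hnf4a between rUUO and UUO in PT cells (0.09 under quantile normalization and 0.09 without mitochondrial genes), Hnf4a in the difference of UUO changes against macrophages (-0.19 and -0.22 under the same settings) and against stromal cells (-0.38 under quantile normalization), and Pax8 between stromal rUUO and sham (just under 0 without mitochondrial genes, 0.0 when rounded). Among 623 values of the 39 changes not printed, 40 turned in sign.

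Counts of called members moved by over 1.5 times as follows. In PT rUUO against sham (4 in the report) there were 0 without the filter, 2 each under TPM, quantile normalization and the fit on all populations, and 1 with the replicate block. In macrophages (rUUO against sham, 0 in the report) there was 1 with a pseudocount of 0.1, under quantile normalization and in the fit on all populations, which also called 1 in both endothelial comparisons with sham. In stromal cells there were 3 for UUO against sham without mitochondrial genes and 3 with the replicate block (5 in the report; Sox4 and Sox9 lost their calls in both), 3 for rUUO against UUO in the fit on all populations (1), and 2 without the filter, 2 under TPM and 4 in the fit on all populations for rUUO against sham (1). For the difference of changes there were 2 with a pseudocount of 0.1 and 1 under quantile normalization against endothelial cells (4), and 6 with a pseudocount of 0.1 and 5 without mitochondrial genes against stromal cells (3).

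With 1 sample left out, the counts were 0 to 3 in PT rUUO against sham, 0 to 1 in endothelial rUUO against sham (1 without sham replicate 2), 3 to 6 in stromal UUO against sham (3 without sham replicate 1 or 4, and 6 without UUO replicate 4, when more members were tested), 1 to 2 in stromal rUUO against UUO (2 without UUO replicate 3), 1 to 3 in stromal rUUO against sham (3 without rUUO replicate 2, 2 without rUUO replicate 6), 3 to 5 between PT and endothelial sham, and 2 to 4 for the difference of changes against endothelial cells (2 without PT sham replicate 4). Hnf4a ranged from -0.24 to 0.04 between rUUO and UUO in PT cells, from -0.11 to 0.56 in the difference against macrophages and from -0.85 to 0.09 against endothelial cells, and Pax8 from -0.05 to 0.44 between stromal rUUO and sham.

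Same-numbered samples showed little sign of deviating together, although the few highest correlations were all between such samples. The correlation of their deviations from the group means passed 0.1 in 1 of 35 pairs between surgeries and in 2 of 57 between populations (highest 0.17). Among differently numbered samples it passed 0.1 in 0 of 126 and 0 of 184 pairs (highest 0.08 in each). The median was 0.01 for both kinds of same-numbered pairs and 0 for the others. The numbers were not taken as pairs, and whether samples of 1 number share a mouse was not tested. The replicate block changed the count of called members by over 1.5 times only in the PT and stromal comparisons given above. Over all genes it called 160 and not 437 between rUUO and UUO in PT cells, and 116 and not 585 in stromal cells. For UUO against sham it called 346 and not 665 in macrophages and 101 and not 265 in endothelial cells, for rUUO against sham 115 and not 459 in macrophages, 68 and not 237 in endothelial cells and 1574 and not 2407 in stromal cells, and 0 and not 8 between rUUO and UUO in endothelial cells. Quantile normalization also evened the split of calls between PT and other sham populations, with 3787 of 7578 genes higher against macrophages (1784 of 9223 in the report), 3009 of 6156 against endothelial cells (1240 of 8848) and 3065 of 6316 against stromal cells (1120 of 9602). Without counts, the precision of values near 0 is unknown.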
